A study of Rattus norvegicus with 6 samples.

Results

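Imprinted growth regulators were taken as 9 genes, Dlk1, Mest, Peg3, Plagl1, Ndn, Cdkn1c, Grb10, H19 and Meg3, on arrays of neonatal rat ovary after lipopolysaccharide (LPS) or saline. They were looked up by name among the non-control probes of the arrays, through the RefSeq accession attached to each probe, and 6 of the 9 were found. Dlk1, Mest, Ndn and H19 had 1 probe each and Plagl1 and Cdkn1c had 2 probes each, which gave 8 probes of 30367 in all. Peg3, Grb10 and Meg3 matched no probe and were not analysed here. Each of the 8 gave a signal well above background on every array.

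Genomic imprinting leaves a gene expressed from the allele of 1 parent, and the other copy is silenced by DNA methylation and chromatin marks set in the germline. Many imprinted genes act on growth before and shortly after birth: as a broad rule, genes expressed from the paternal allele promote growth and genes expressed from the maternal allele restrain it. The 9 genes are usual members of a network of such genes that is known for high expression in fetal and neonatal organs and for falling as growth slows. The ovary is also the organ in which maternal imprints are set, in growing oocytes. The arrays measure total transcript of each gene and not the allele it came from, so the allele is given below as background only. That background comes from the mouse, and the allele can depend on the tissue.

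RNA came from whole ovaries of female Wistar rats on postnatal day (PND) 7. LPS, a bacterial cell wall component (here from Salmonella enterica) that provokes inflammation, was injected intraperitoneally at 0.05 mg/kg on PNDs 3 and 5, and saline of the same volume was the control. There were 3 arrays of LPS-treated and 3 of saline-treated ovaries, described as biological replicates, and the methods give 5 animals per treatment group, from 2 LPS and 2 saline litters, with whole litters given 1 treatment. The 3 arrays of a group therefore cannot stand for 3 separate litters. Which animals stood behind which array was not given in the sources used here, and p-values measure the spread between these arrays.

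Values are log2 of the background-subtracted spot signal minus the 75th percentile of that array, so that a value of 0 is a probe as bright as the 75th percentile. A probe's level is compared between arrays and not with that of another probe. The 75th percentile signal ran from 2379 to 5497 over the 6 arrays, 66.3% to 76.0% of spots were well above background, and no spot was saturated. Oocyte and granulosa cell markers such as Zp3, Gdf9, Amh and Inha were well above background on every array. Saline replicates 2 and 3 stood apart from the other 4 arrays by transcripts of the adrenal gland, an organ near the ovary: the summed linear signal of 10 adrenal cortex markers, relative to the 75th percentile of the array, was 320 and 413 on them and 5.51 to 17.0 on the others. The sum of 9 adrenal medulla markers was 94.7 and 57.9 on the same arrays and 3.51 to 6.37 on the others. Defining adrenal genes (Cyp11b1, Akr1b7, Mc2r, Chga and Chgb) were well above background on saline replicates 2 and 3 and on none of the LPS arrays or saline replicate 1.

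The sequence before the start of 2 paternally expressed members is shown because they had the widest ranges over the arrays among the paternally expressed members. Both are the 250 bases before the annotated start in the RefSeq annotation of GRCr8, 5′ to 3′ on the + strand, with CpG dinucleotides, the sites of DNA methylation, in capitals. The Dlk1 stretch is at chr6:134192347-134192596 and the Mest stretch at chr4:60321564-60321813.
Dlk1: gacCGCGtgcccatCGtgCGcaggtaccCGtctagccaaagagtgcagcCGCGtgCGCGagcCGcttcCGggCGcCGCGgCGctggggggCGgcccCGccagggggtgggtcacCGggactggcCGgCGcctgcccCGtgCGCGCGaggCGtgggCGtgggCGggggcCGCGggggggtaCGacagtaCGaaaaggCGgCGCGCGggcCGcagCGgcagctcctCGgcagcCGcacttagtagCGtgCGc
Mest: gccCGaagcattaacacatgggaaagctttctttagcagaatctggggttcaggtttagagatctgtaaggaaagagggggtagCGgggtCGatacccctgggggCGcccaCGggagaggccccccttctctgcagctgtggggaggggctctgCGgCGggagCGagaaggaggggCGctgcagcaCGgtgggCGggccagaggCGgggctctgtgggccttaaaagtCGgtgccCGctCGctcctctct
The Dlk1 stretch held 41 CpG at 78.0% G+C, and 99.0% of 33465 rat promoter stretches of this length held fewer. The Mest stretch held 15 CpG at 64.0% G+C, with fewer in 74.2% of stretches. Those of Plagl1 and Ndn held 23 and 10 CpG, against a median of 5 over all stretches. A GC box (GGGCGG on either strand) was present in all 4, 2 copies each in Dlk1 and Plagl1 and 1 each in Mest and Ndn, and in 30.5% of all stretches. The TATA box (TATAAA) was found on neither strand in any of the 4, and in 12.9% of all stretches. The same held for the CCAAT box, present in 34.0% of all stretches, and for AAGGTCA, the core of the site of the steroidogenic nuclear receptor Nr5a1, present in 3.99%. All motifs were searched on both strands, and as GC boxes alone were found, no match overlapped that of another motif. Stretches for Cdkn1c and H19 were not analysed here.

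H19 is the host of a microRNA, miR-675, whose mature arms lie within it on the − strand of chromosome 1 (GRCr8), miR-675-5p at chr1:207161800-207161821 and miR-675-3p at chr1:207161766-207161786. They are shown because they are the known processed product of the H19 transcript measured here. The seed (bases 2 to 8) is in capitals, and the arms share no seed. The microRNA itself was not measured.
rno-miR-675-5p: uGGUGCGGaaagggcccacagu
rno-miR-675-3p: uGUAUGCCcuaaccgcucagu

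Neonatal LPS was compared with saline to ask whether the treatment was accompanied by a change in these growth regulators. With the 2-fold difference and p under 0.05 that the study set, applied here to unadjusted limma p-values and 1 probe per gene, none of the 6 genes was called, where 1.57% of 26903 genes were. Over all probes 1.69% were called, 0.613% higher and 1.08% lower in LPS. By the same probes 0 of 6 passed an unadjusted p under 0.05, against 15.9% of genes, and no probe of the whole array (0.00%) passed an adjusted p under 0.05 in limma. The 1.57% and 15.9% include dim genes, whereas the 6 were bright on every array, so these shares are not a like-for-like reference. With dim probes filtered out, 1292 of 20445 probes passed an unadjusted limma p under 0.05, and 312 were called. The lowest adjusted p among the 6 was 0.333. Their median log2 fold change, LPS minus saline, was -0.15, beside -0.04 over all probes and 0.015 over the genes well above background on all arrays. Of the 6 genes, 4 had a lower mean in the LPS group and 2 a higher one. The groups did not overlap for 2 of 6, Ndn and Cdkn1c, both lower on every LPS array, and among the 16295 genes well above background on all 6 arrays the groups did not overlap for 11.2% and were lower in LPS for 5.88%. With 3 arrays against 3, the smallest two-sided p of the exact permutation test is 0.1, so that no single gene could pass 0.05 by it.

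**Figure D1:**
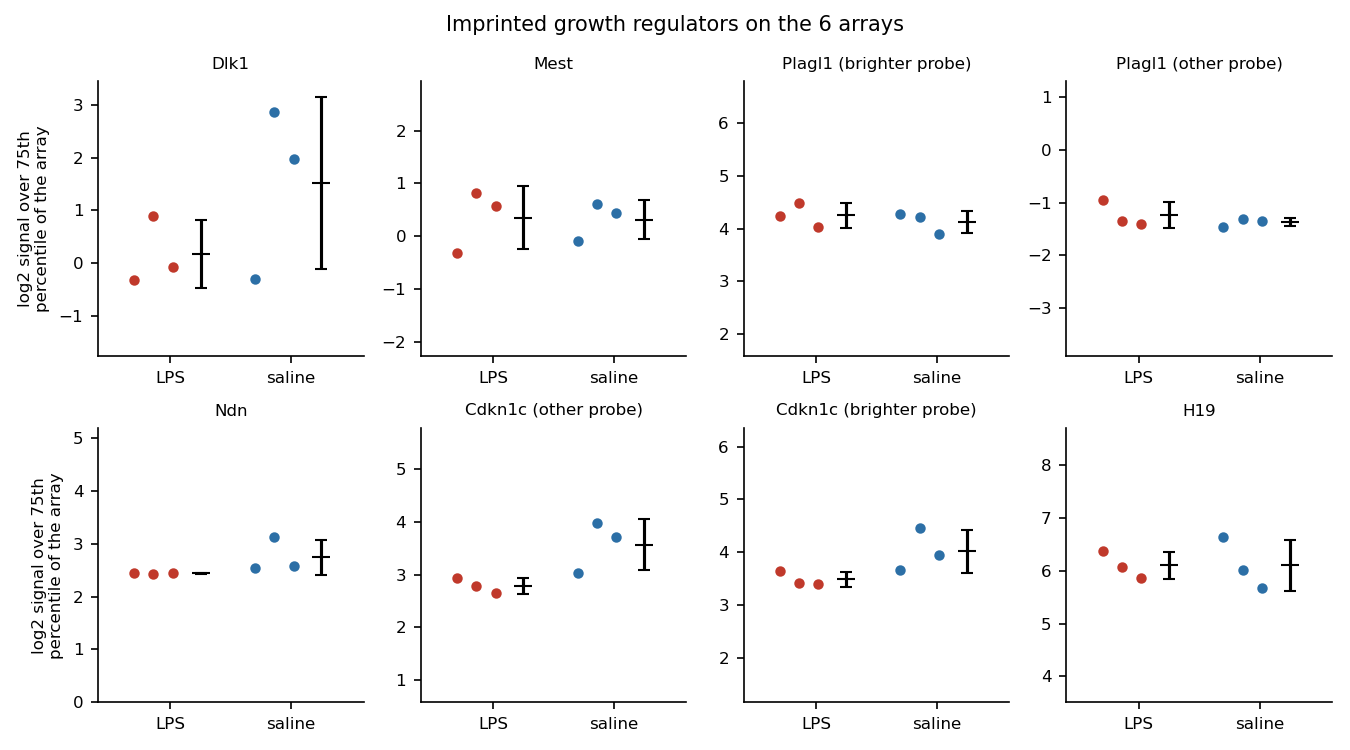
Level of each of the 8 probes on each array (y axis, log2 signal over the 75th percentile of the array, all panels spanning the same log2 distance) in the LPS and saline groups. Points are arrays, replicates 1, 2 and 3 from left to right, and the bar is the mean ± SD (n = 3). Dlk1 is the panel with the widest spread, with saline replicates 2 and 3 at 2.87 and 1.97 and the other 4 arrays between -0.31 and 0.90.

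Dlk1, expressed from the paternal allele, encodes a transmembrane protein with EGF repeats, related to the Notch ligands, which holds back differentiation of several cell types. It is also known from the outer adrenal cortex of the rat. Its level was -0.31, 0.90 and -0.07 on LPS replicates 1, 2 and 3 and -0.30, 2.87 and 1.97 on saline replicates 1, 2 and 3. Saline replicates 2 and 3 were above every LPS array, whereas saline replicate 1 lay at the level of the lowest LPS array, so the groups overlapped. The mean was 0.17 ± 0.64 (SD, n = 3) in the LPS group and 1.51 ± 1.63 (SD, n = 3) in the saline group. The difference of -1.34 on the log2 scale (SE 0.80, 95% interval -3.25 to 0.57), 2.53-fold lower in LPS, did not pass the test (limma, p = 0.139, adjusted p = 0.505; exact permutation p = 0.3). The range of Dlk1 over the 6 arrays, 3.18, was exceeded by 0.847% of the 16295 genes well above background on all of them, of which the median range was 0.665.

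The 2 saline arrays with the high Dlk1 values were the same 2 on which the adrenal markers were high. Without both of them, leaving saline replicate 1 alone against the LPS arrays and its spread assumed to be theirs, the Dlk1 difference was 0.47 (SE 0.55; limma adjusted p = 0.871), with the opposite sign. Without saline replicate 1, which had low adrenal markers, it was -2.25 (limma adjusted p = 0.165) and Dlk1 met the 2-fold criterion, as did 3.61% of all genes without that array. Without saline replicate 2 it was -0.66. With the replicate number of the labels as a block, the difference was again -1.34 (SE 0.46), at a limma p of 0.0379 (adjusted p = 0.220), which met the criterion as well, and the count of genes called then rose from 0 to 1 of 6, beside 1.95% of all genes under the same block. In whole-organ RNA fewer cells of a type and less RNA per cell cannot be told apart. Whether the Dlk1 difference came from adrenal tissue on the saline arrays with high adrenal markers, and not from ovarian cells, was not tested.

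Mest, paternally expressed and coding for a membrane protein of the hydrolase fold that is active in growing mesenchyme, stood at -0.33, 0.81 and 0.57 on the LPS arrays and at -0.10, 0.60 and 0.43 on the saline arrays. In both groups replicate 1 was the lowest array, and the groups overlapped over most of their range. Means were 0.35 ± 0.60 and 0.31 ± 0.37 (SD, n = 3 each), a difference of 0.04 (SE 0.35, 95% interval -0.79 to 0.87; limma adjusted p = 0.994; exact permutation p = 1). The interval leaves room for changes in either direction, and both of its ends lie within 2-fold. Its sign turned in 5 of 21 alternative analyses, among them median scaling at -0.015.

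Plagl1, paternally expressed, encodes a zinc finger transcription factor that regulates other genes of the imprinted network and slows the cell cycle. Its brighter probe lay at 4.24, 4.49 and 4.02 with LPS and 4.27, 4.22 and 3.89 with saline. These values overlapped, and the range over the 6 arrays was 0.60. The difference was 0.12 (SE 0.20, 95% interval -0.36 to 0.61; limma adjusted p = 0.910), and that of the second probe 0.14 (SE 0.19; limma adjusted p = 0.873). The second probe read -0.95, -1.36 and -1.40 with LPS and -1.46, -1.31 and -1.36 with saline, LPS replicate 1 being the highest array. The signs of these differences turned in 1 alternative for each probe.

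Ndn, paternally expressed, encodes necdin, a protein of the MAGE family that restrains proliferation and is best known in neurons. It was represented by 10 spots per array. Values were 2.45, 2.43 and 2.45 with LPS and 2.54, 3.13 and 2.57 with saline. The LPS arrays lay within 0.023 of each other and below all saline arrays by a gap of 0.084, and saline replicate 2 stood above the other saline arrays. The difference of means, 2.44 ± 0.012 against 2.74 ± 0.33 (SD, n = 3 each), was -0.30 (SE 0.21, 95% interval -0.80 to 0.20) and did not pass the test (limma adjusted p = 0.605; exact permutation p = 0.1, the smallest possible). Without saline replicate 2 it was -0.11, without saline replicates 2 and 3 it was -0.09, and on signals not scaled between arrays it was 0.074.

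Cdkn1c, maternally expressed, encodes p57, an inhibitor of cyclin-dependent kinases that stops cells from dividing. Its brighter probe read 3.65, 3.41 and 3.40 with LPS and 3.66, 4.46 and 3.94 with saline. All saline arrays were above all LPS arrays, but saline replicate 1 exceeded LPS replicate 1 by only 0.011. Means were 3.49 ± 0.14 and 4.02 ± 0.41 (SD, n = 3 each). The difference was -0.53 (SE 0.24, 95% interval -1.11 to 0.045), 1.45-fold lower in LPS, and did not pass the test (limma p = 0.0653, adjusted p = 0.333; exact permutation p = 0.1).

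The second Cdkn1c probe gave the same order of arrays at a larger distance. It read 2.94, 2.78 and 2.64 with LPS and 3.04, 3.97 and 3.71 with saline, again without overlap, with a gap of 0.094. The difference was -0.78 (SE 0.27, 95% interval -1.43 to -0.14), 1.72-fold lower in LPS, at an unadjusted limma p of 0.0242 and an adjusted p of 0.271. It was under 2-fold and was not called. Both probes kept a negative difference in every alternative, from -0.71 to -0.16 for the brighter one and from -1.05 to -0.25 for the second. As with Dlk1, saline replicates 2 and 3, the arrays with high adrenal markers, were the high ones. Without both, the differences were -0.17 and -0.25, so the sign there rests on saline replicate 1 alone. Without saline replicate 1 they were -0.71 and -1.05, and the second probe then met the criterion (limma adjusted p = 0.131).

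H19, maternally expressed, is a long noncoding RNA made next to the growth factor gene Igf2 and one of the most abundant imprinted transcripts of fetal tissue. It stood at 6.38, 6.07 and 5.87 on the LPS arrays and at 6.63, 6.02 and 5.68 on the saline arrays, overlapping fully. The highest array of each group was its replicate 1. Means were 6.11 ± 0.26 and 6.11 ± 0.48 (SD, n = 3 each), a difference of -0.0048 (SE 0.29, 95% interval -0.69 to 0.68; limma adjusted p = 0.999). Neither direction held: the sign turned in 9 of 21 alternatives, which ran from -0.53 to 0.37.

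**Figure D2:**
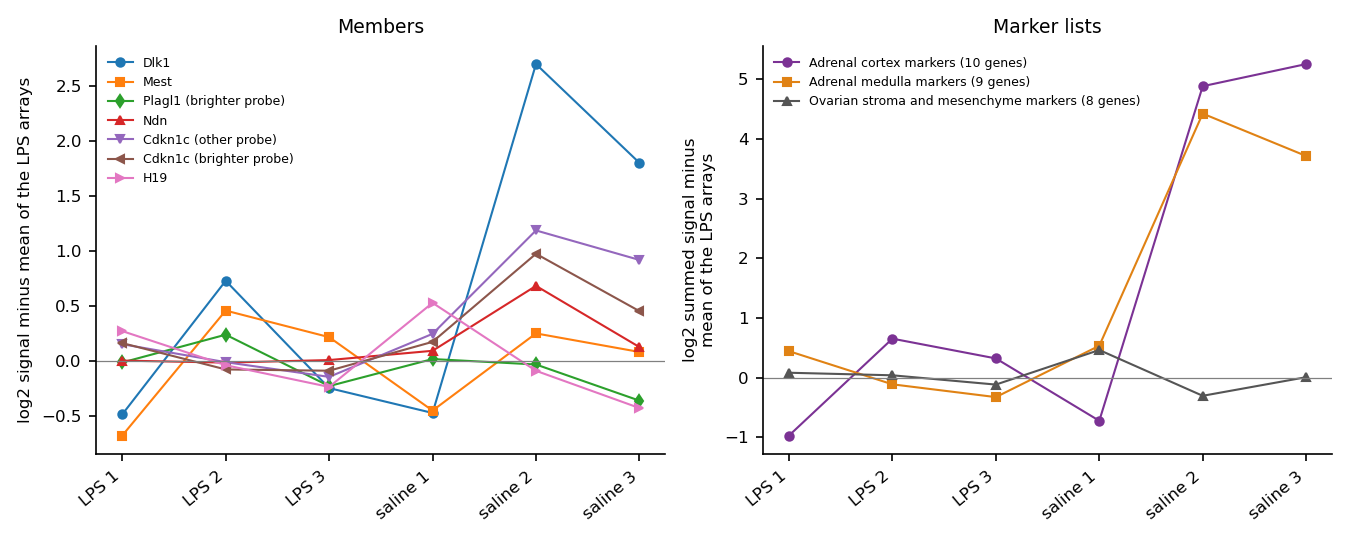
Left, log2 signal of the members on each array minus the mean of the LPS arrays (the second Plagl1 probe is not drawn); right, the same for the summed signal of marker lists (y axes in log2 units, x axis the 6 arrays, lines only join the points of a gene or list). On saline replicate 2, Dlk1 stood 2.70 and the Cdkn1c probes 0.97 and 1.19 above the LPS mean, while Plagl1 and H19 stood -0.03 and -0.09 from it.

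Set against the mean of the LPS arrays, saline replicate 2 was higher by 2.70 for Dlk1, 0.97 and 1.19 for the Cdkn1c probes, 0.68 for Ndn and 0.25 for Mest, and differed by -0.03 for the brighter Plagl1 probe and -0.09 for H19. Saline replicate 3 was higher by 1.80 for Dlk1 and by 0.45 and 0.92 for Cdkn1c, and differed by 0.13 for Ndn, 0.08 for Mest, -0.36 for the brighter Plagl1 probe and -0.43 for H19. On saline replicate 1 the same differences were -0.47 for Dlk1, -0.45 for Mest, 0.17 and 0.25 for Cdkn1c and 0.09 for Ndn. They were 0.02 for the brighter Plagl1 probe and 0.53 for H19. The ovarian stroma and mesenchyme markers, summed over 8 of 8 genes, were 168 to 286 in the saline group and 191 to 220 in the LPS group. The sum, which was mostly Col1a1 and Col3a1, did not set saline replicates 2 and 3 apart, although saline replicate 2 was lowest at 168. Of the 8 genes Tcf21 alone was lowest on both, at -3.38 and -2.96, with -2.76 on saline replicate 1 and -2.20 to -1.66 with LPS. Granulosa markers summed to 20.4 to 72.3 in the LPS group and 35.4 to 60.9 in the saline group.

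**Figure D3:**
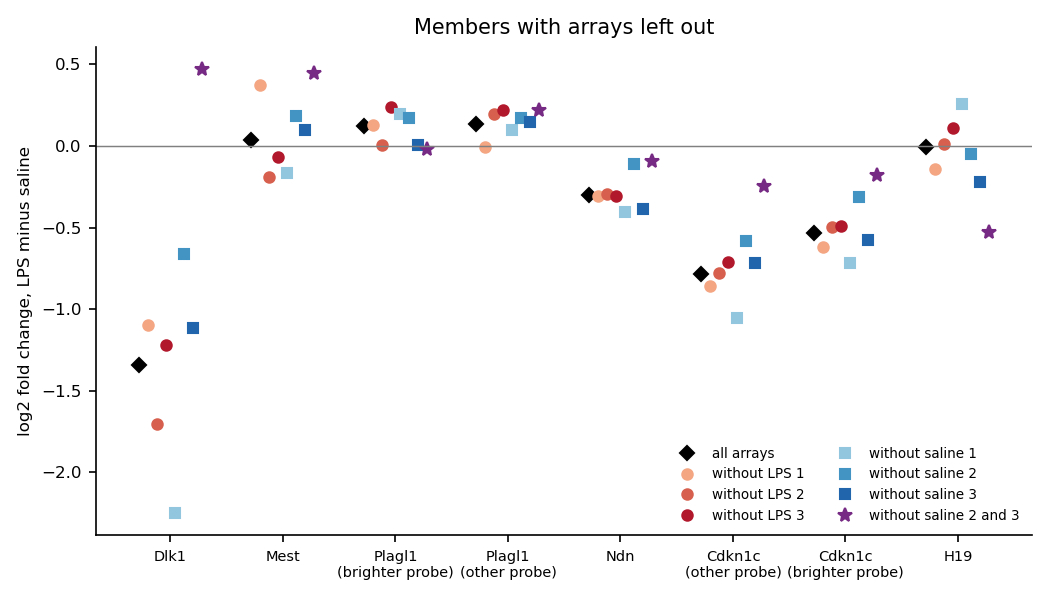
Difference LPS minus saline (y axis, log2 fold change) for each probe with all arrays and with arrays left out (symbols as in the legend). Leaving out single arrays moved Dlk1 between -2.25 and -0.66. Leaving out saline replicates 2 and 3 together left 1 saline array and took Dlk1 to 0.47. Both Cdkn1c probes stayed below 0, at -0.17 and -0.25 against that 1 array.

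Arrays of 1 slide lay in 2 rows, with LPS replicates 2 and 3 alone in the first row and the other 4 arrays in the second. With the row as a block, LPS replicate 1 is the only LPS array set against saline within a row. It gave -1.83 (SE 1.14) for Dlk1, -0.64 for Mest, -0.37 and -0.63 for the Cdkn1c probes, -0.30 for Ndn, 0.11 and 0.42 for the Plagl1 probes and 0.27 for H19, and none of them was called.

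For members with a range over 1 log2 unit, the genes of the most similar profile over the 6 arrays were found among 10011 named genes well above background on all of them, by the root mean square difference of values centred on each gene's mean. Nearest to Dlk1 were Gch1 (GTP cyclohydrolase 1, 0.296), Rab3b (a small GTPase of secretory vesicles, 0.335) and Ina (the neuronal intermediate filament internexin, 0.345). Gch1 read -3.41, -2.93 and -2.94 with LPS and -3.51, -0.49 and -1.40 with saline, with the same pair of arrays high. Nearest to Mest were Ngfr (the low-affinity neurotrophin receptor, 0.086), Gpr162 (0.095) and Gadd45g (a stress-response gene, 0.10). Nearest to Cdkn1c were Decr1 (a mitochondrial enzyme of fatty acid oxidation, 0.043), Marchf2 (a ubiquitin ligase, 0.060) and Letmd1 (0.063). Decr1 read 2.75, 2.48 and 2.54 with LPS and 2.71, 3.53 and 3.11 with saline. These are descriptions over 6 arrays, with no test.

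The wider family was given by a list of 48 other imprinted genes, 23 expressed from the paternal and 25 from the maternal allele, of which 36 had a probe (13 and 23) and 24 were well above background on all 6 arrays. By the 2-fold criterion 2 of the 36 were called, Dio3 higher and Nap1l5 lower in LPS, both paternal, where 1.57% of all genes were called. Of the 36, 9 passed an unadjusted p under 0.05 in limma, against the 15.9% of all genes, and 6 of these 9 were above background on no array. None passed an adjusted p under 0.05 (lowest 0.271). The median log2 fold change of the 36 was -0.15, that of the paternal genes -0.08 and that of the maternal genes -0.17. Of the 24 genes well above background throughout, 7 differences were positive and 17 negative, with a median of -0.11.

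Dio3, the deiodinase that inactivates thyroid hormone, read -3.81, -3.46 and -3.41 with LPS and -5.40, -4.21 and -4.23 with saline. Every LPS array was above every saline array by at least 0.41, and saline replicate 1 was the lowest and not well above background. The difference was 1.06 (SE 0.35; limma p = 0.0210, adjusted p = 0.271; exact permutation p = 0.1). It stayed positive in all 21 alternatives, from 0.11 without background subtraction to 1.84, and was called in 13; without saline replicate 1 it was 0.66, without LPS replicate 2 it was 1.01 and without LPS replicate 3 it was 0.98, and it was called in none of these 3. Without saline replicates 2 and 3, the arrays with high adrenal markers, the difference was 1.84. That value set the LPS arrays against saline replicate 1 alone, the array not well above background.

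Nap1l5, a nucleosome assembly protein family member, was well above background on none of the LPS arrays and not on saline replicate 1. It read -6.92, -6.89 and -7.41 with LPS and -6.81, -1.63 and -3.01 with saline, so that saline replicates 2 and 3 stood alone. With each LPS array raised to its lowest signal well above background, the mean of the saline group was 4.60-fold above that of the LPS group. Saline replicate 1 entered the saline mean at its dim value, so 4.60 is not a strict lower bound. The fitted difference with all arrays had a limma adjusted p of 0.280. Without saline replicates 2 and 3 the fitted difference was -0.27 and was not called, nor was it called with any single LPS array, saline replicate 2 or saline replicate 3 left out. Without saline replicate 1 it was called (limma adjusted p = 0.0120), as were 3.61% of all genes. In that fit 290 of 30365 probes passed an adjusted p under 0.05, so this was not particular to Nap1l5.

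Igf2, the growth factor next to H19, read 4.97, 4.52 and 4.56 with LPS and 5.05, 4.76 and 4.16 with saline, a difference of 0.03 (SE 0.27; limma adjusted p = 0.995) whose sign turned in 4 of 21 alternatives. Among genes well above background on all arrays, the groups did not overlap for Ppp1r9a (neurabin, an actin-binding protein), Trappc9 (a vesicle trafficking subunit) and Nap1l4 (a nucleosome assembly protein), all maternal and lower in LPS. These were 3 of 24, beside 11.2% of all genes of that brightness, or 5.88% lower in LPS. Ppp1r9a read -3.59, -3.96 and -4.36 with LPS and -2.77, -2.85 and -3.43 with saline. Its difference was -0.95 (SE 0.28; limma adjusted p = 0.271; exact permutation p = 0.1), just under 2-fold, and without saline replicates 2 and 3 it was -1.20. It met the criterion in 4 of 21 alternatives: with median scaling, without LPS replicate 1, without saline replicate 3 and without saline replicates 2 and 3. Trappc9 differed by -0.31 (SE 0.16) and Nap1l4 by -0.17 (SE 0.15), and on signals not scaled between arrays both were above 0.

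**Figure D4:**
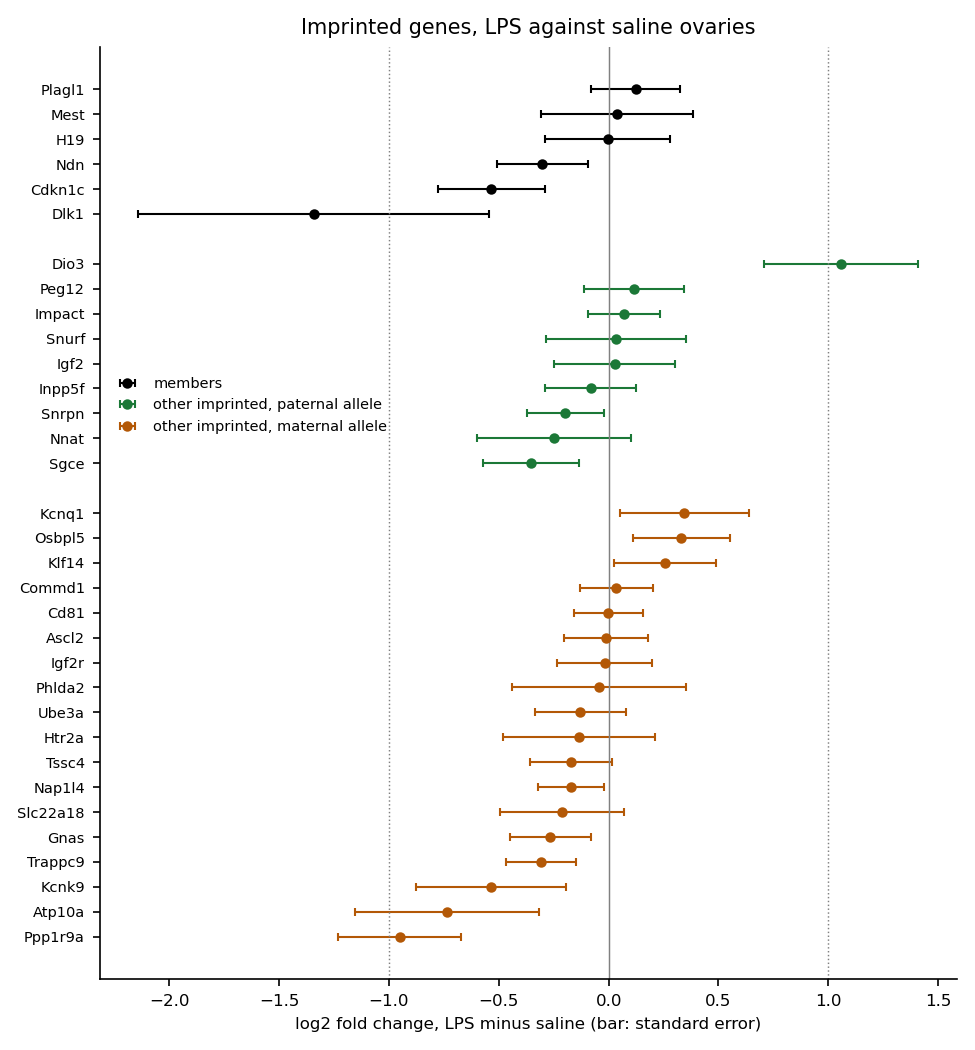
Difference LPS minus saline (x axis, log2 fold change; points the estimate, bars ± 1 SE) for the brightest probe of the 6 members and of the other imprinted genes with a signal well above background on 1 or more arrays in each group. Dotted lines mark 2-fold. Dlk1, at -1.34 with an SE of 0.80, and Dio3, at 1.06 with an SE of 0.35, lie beyond them.

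Imprinted genes lie in clusters, and the members of 2 clusters were read in gene order (GRCr8, order only). Along chromosome 1, H19 (-0.0048), Igf2 (0.03), Ins2 (-0.24), Ascl2 (-0.012), Cd81 (-0.0015), Tssc4 (-0.17), Kcnq1 (0.34), Cdkn1c (-0.53), Slc22a18 (-0.21), Phlda2 (-0.045), Nap1l4 (-0.17) and Osbpl5 (0.33) had log2 fold changes, LPS minus saline, no further from 0 than that of Cdkn1c. None of these passed the test. The gene Th, which codes for tyrosine hydroxylase, the first enzyme of catecholamine synthesis, and was counted among the adrenal medulla markers, lies in the same stretch and stood at -2.15 (SE 0.65; limma adjusted p = 0.271), past the 2-fold criterion. On chromosome 6, Dlk1 and Dio3 are at the ends of a cluster of which Meg3 and Rtl1 matched no probe. Their differences had opposite signs, -1.34 for Dlk1 and 1.06 for Dio3, both from the paternal allele.

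**Figure D5:**
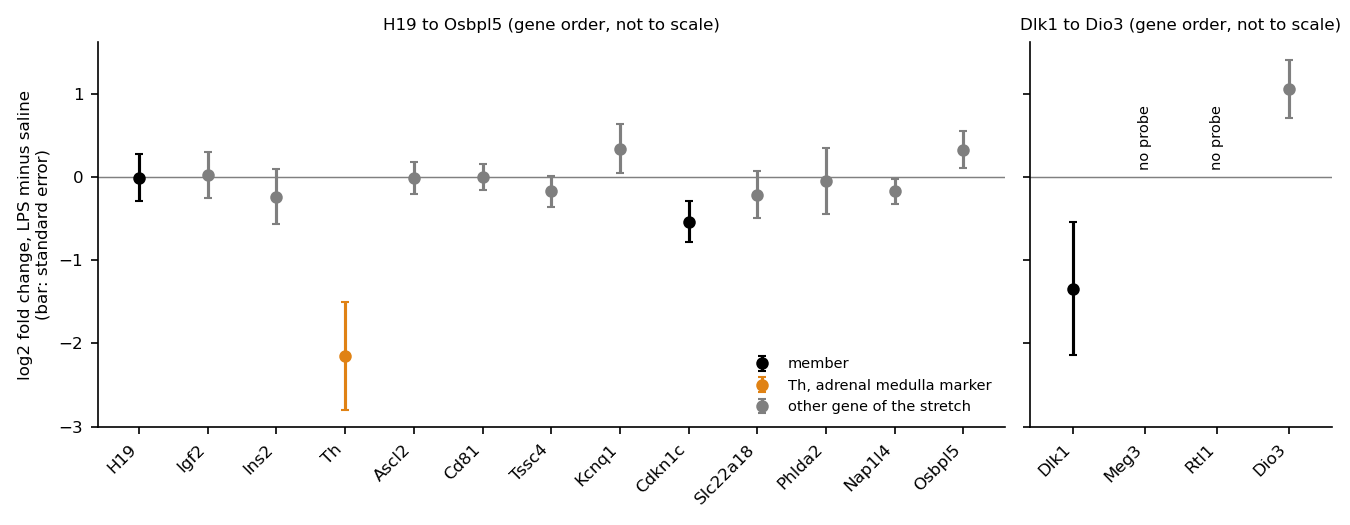
Difference LPS minus saline (y axis, log2 fold change, bars ± 1 SE) of genes in their order along the H19 stretch of chromosome 1 and the Dlk1 stretch of chromosome 6 (x axis, order only). Th at -2.15 is the one gene of the chromosome 1 stretch further from 0 than Cdkn1c at -0.53. With all arrays, Dlk1 and Dio3 lie on opposite sides of 0.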

How the data were processed

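Ovarian RNA was measured on 6 single-colour Agilent arrays of 62976 spots, 3 per treatment, grouped by the labels. The authors deposited spot intensity values from Agilent Feature Extraction 10.5.1.1, with background subtracted and surrogate values for dim spots, and a table of the whole study, which was used as an alternative. The labels also name lumi among the processing tools. For the arrays the methods set a threshold of 2-fold and p under 0.05 without naming a test beside it; their statistics section names ANOVA, which may cover the arrays. limma, unadjusted p-values and 1 probe per gene were choices made here.

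From the deposited intensity, log2 values were computed and the 75th percentile of each array was subtracted. Spots flagged as non-uniform or population outliers were removed, spots of a probe averaged, and at least 2 arrays per group required. A probe was well above background on an array where at least a share of 0.5 of its unflagged spots carried that flag. limma 3.58.1 in R 4.3.3 compared LPS with saline over 30367 probes with Benjamini-Hochberg adjustment; 17998 probes had a symbol through a GRCr8 table of names. Gene counts take the brightest probe of a gene. A probe without a symbol was counted as a gene under the array's own name for it, so 15154 of the 26903 genes were symbols. A group with no array above background was raised to the lowest signal among probes well above background on each array. The fold to the other group was taken from there, with the other group at its measured values, dim arrays included. The code was tested on simulated data. No 2 arrays held identical values. The number of arrays limits the precision.

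The members and gene lists were chosen with earlier results of these data known. Text names all members, other imprinted genes that met the 2-fold criterion or did not overlap and were bright enough in 1 group or both, Igf2, and the 3 nearest profiles of members. Gnas met neither rule and was added by name to the genes followed through the alternatives. Ins2 and the chromosome 1 neighbours were named for their place. Deviations from the group means of same-numbered arrays correlated at 0.298, 0.215 and 0.254 over probes, so that replicate numbers may pair the arrays, although the labels give no reason for it. The values in the text come from the unpaired comparison, and the replicate number as a block was an alternative. Sequences are from RefSeq. There were 21 alternatives.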

Additional observations from a re-analysis of the deposited data

How the results depend on the processing

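Of the 6 genes, 0 were called with all arrays, and 0 to 1 with 1 array left out (Dlk1 without saline replicate 1). The replicate block called 1 (Dlk1) and the second Gnas probe (-1.14), and changed no other call of a gene named here. Over all probes 513 were called (186 higher, 327 lower in LPS): 282 with normexp (2 higher, 280 lower), 211 without background subtraction (0 and 211), 1230 without scaling (1003 and 227), 162 higher and 425 lower with median scaling, 291 with quantile normalization, 312 among probes well above background in at least 1 group, 148 by an equal-variance t-test of 1 probe at a time (100 and 48; 3954 at an unadjusted p under 0.05 and 0 after Benjamini-Hochberg), 1555 with the slide row as a block (1489 and 66), 628 with the replicate block (245 and 383), 1000 without saline replicates 2 and 3 and 250 to 1131 with 1 array left out (highest without saline replicate 1, lowest without saline replicate 2). Without scaling the median of all probes moved from -0.04 to 0.34. Of the other imprinted genes 2 were called: 1 with normexp, with the filter on dim probes and with the slide row, 0 without background subtraction, with quantile normalization and by the t-test, 3 with median scaling (Ppp1r9a added), and 0 to 2 with 1 array left out (0 without LPS replicate 2 or 3).

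Signs turned for H19 (0.0058 with normexp, 0.016 without background subtraction, 0.37 unscaled, 0.039 with the percentile of probes above background, 0.12 with quantile normalization, 0.27 with the slide row, -0.22 to 0.26 with 1 array left out), Igf2 (-0.025 with median scaling, -0.37 without saline replicates 2 and 3, -0.22 to 0.23 with 1 left out) and Mest (-0.015 with median scaling, -0.64 with the slide row, -0.19 to 0.38 with 1 left out). Without saline replicates 2 and 3 they turned for Dlk1 (0.47), the second Gnas probe (0.78) and the brighter Plagl1 probe (-0.019). Without scaling they turned for the brighter Gnas probe (0.11), Nap1l4 (0.20), Ndn (0.074) and Trappc9 (0.065). The second Plagl1 probe ran from -0.0047 to 0.22 with 1 array left out. The cause was not tested. Of the alternative values of named genes, 279 kept their direction and side of the threshold, 18 lost and 9 gained the call, and 26 turned sign.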
